A study of Mus musculus with 8 samples.

Results

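Histone lysine methyltransferases and demethylases were examined in the mouse medial prefrontal cortex as a list of 38 genes chosen by symbol for what they encode. Of these, 37 had a row in the table of 22609 genes, under older symbols for the Kmt2 genes and for Nsd2 (Whsc1), and all 37 passed the filter on low values that left 14704 genes to test. Setd1b is not analysed here. RNA came from the anterior cingulate part of the medial prefrontal cortex, from both hemispheres of B6.SJL mice aged 3 months, taken 1 h after training. The 4 Contextual fear conditioning samples came from mice that explored a chamber for 3 min, received 2 foot shocks of 0.8 mA (2 s each, 30 s apart) and were left there for 15 s more. The 4 Context control exposure samples came from mice handled the same way with no shock. Whole tissue was used, so fewer cells of a type and less RNA per cell cannot be told apart.

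Lysines on the tail of histone H3 carry methyl groups that mark the state of a gene. Methylation of H3K4 is found at active promoters and enhancers, H3K36 and H3K79 methylation along transcribed genes, and H3K9 and H3K27 methylation at silenced ones. Enzymes with a SET domain, and Dot1l without one, add the groups, while the Kdm1 amine oxidases and the JmjC-domain Kdm enzymes remove them. Several of these enzymes, among them the products of Ehmt1, Ehmt2, Kdm5c and Mll1 (now Kmt2a), are known for roles in learning or in human intellectual disability.

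Gene reads recovered per sample ranged from 1992452 to 3565356, and the groups overlapped in depth. Values are gene reads scaled by a factor per sample, and levels of different genes are compared only after division by transcript length. A change is the difference of group means of log2(value + 1), fear conditioning minus context control, and a call needs an adjusted p under 0.05 over all tested genes in limma.

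No histone methylation enzyme passed the test after fear conditioning, with 0 called of 37 tested and 0 (0%) of all tested genes. The smallest adjusted p among the members was 0.9998 in limma. By sign alone, 28 of the 37 lay higher after conditioning and 9 lower, and the same sign was found in 51.8% of all tested genes. Under quantile normalization 21 were higher and 16 lower. The median change was 0.06 over the members and 0.0095 over all tested genes, both on the log2 scale. Changes of single members lay between -0.36 (Setdb2) and 0.59 (Smyd3). Their 95% intervals reached between 0.30 and 1.46 to either side, with a median of 0.43.

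**Figure D1:**
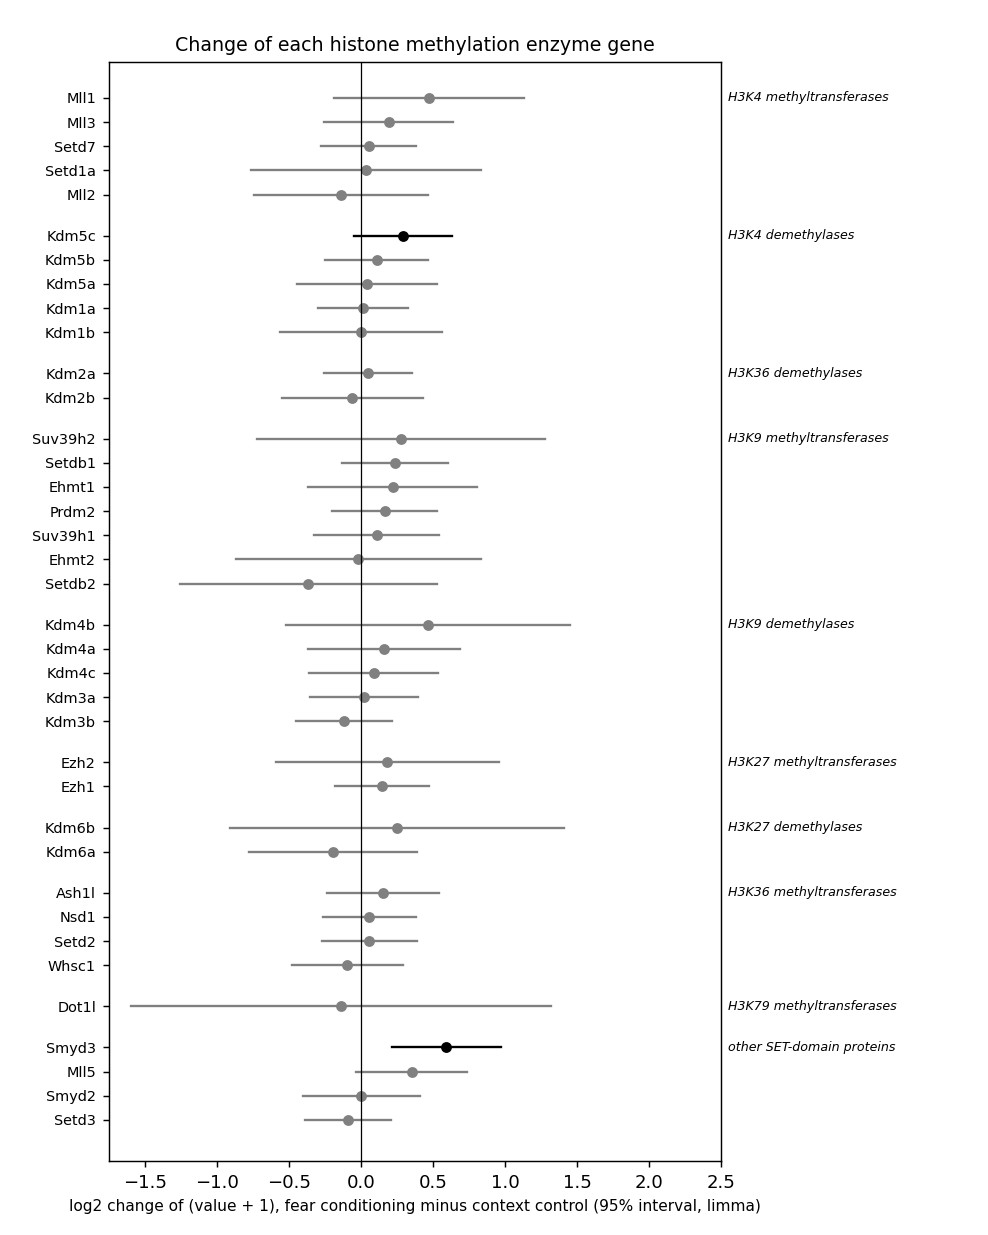
The log2 change of (value + 1), fear conditioning minus context control, is plotted for each of the 37 measured genes with its 95% interval from limma, grouped by the histone residue acted on, with genes whose groups did not overlap (Smyd3 and Kdm5c) in black and the rest in grey. The interval of Smyd3 (0.21 to 0.97) alone lies clear of 0, and its adjusted p was 0.9998.

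A single member, Smyd3, had an unadjusted p under 0.05 in limma, against 2.7% of all tested genes in either direction and 1.18% in the higher one. Smyd3 encodes a SET- and MYND-domain methyltransferase first described on H3K4 and later on cytoplasmic kinases. It read 199, 168, 213 and 204 in fear conditioning replicates 1 to 4, against 124, 138, 109 and 150 in context control replicates 1 to 4. Every conditioned sample lay above every control. The means were 196 ± 19.4 after conditioning and 130 ± 17.7 in context controls (SD, n = 4 each), a log2 change of 0.59 (SE 0.17), and a fold of 1.51. Its adjusted p over all genes was 0.9998 in limma, so the gene was not called. With the replicate number as a block, 2 members had an unadjusted p under 0.05, Smyd3 and Mll1, against 4.04% of all tested genes in that fit, each with an adjusted p of 0.997 in limma. With GC correction alone there were 2 (Smyd3 and Mll5), against 824 of 14704 tested genes. With GC correction and the block together there were 4 (Smyd3, Mll1, Mll5 and Kdm4b), against 5.87% of all tested genes. Without context control replicate 2 there were 3 (Smyd3, Mll1 and Mll5), against 443 of 14702 tested genes.

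Kdm5c was the other member whose groups did not overlap. Its product removes methyl groups from H3K4 at promoters and enhancers, and the gene lies on the X chromosome. It read 240, 224, 238 and 201 in fear conditioning replicates 1 to 4 and 198, 196, 184 and 159 in context control replicates 1 to 4. The lowest conditioned sample stood just above the highest control. The log2 change was 0.29 (SE 0.16, 95% interval -0.05 to 0.63), and the adjusted p was 0.9998 in limma. Over all tested genes the groups did not overlap in the higher direction for 0.979% and in the lower direction for 0.939%, and for 1.92% in either. Of the members, 2 of 37 did so in the higher direction and 0 in the lower.

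The Y-linked copy of this gene, Kdm5d, had the other sign. It read 69.0, 54.4, 67.0 and 106 in fear conditioning replicates 1 to 4 and 83.1, 86.0, 84.7 and 96.6 in context control replicates 1 to 4, a log2 change of -0.28 (SE 0.24). Its groups overlapped, through fear conditioning replicate 4. Per kb of transcript, the Kdm5c to Kdm5d ratio ranged from 2.36 to 5.10 in conditioned samples and from 2.04 to 2.96 in context controls. How reads that match both copies of such a pair were counted is not given in the sources used here.

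**Figure D2:**
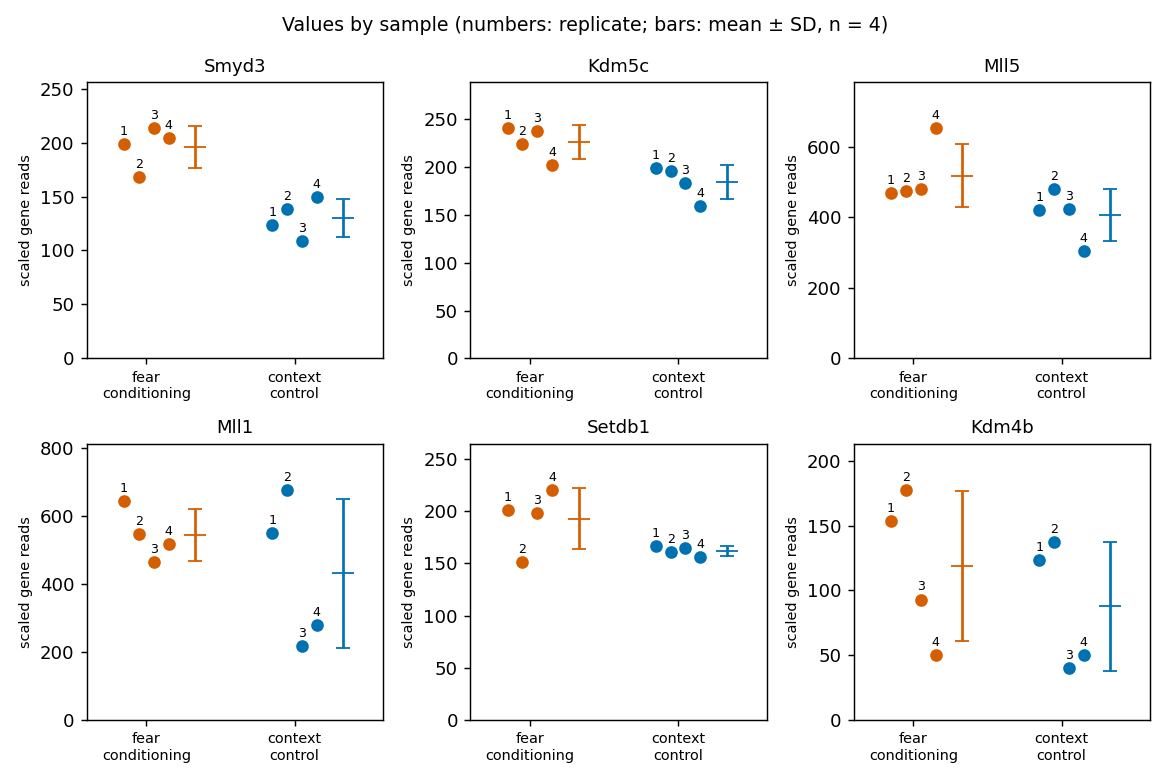
Scaled gene reads are plotted for each sample (points, numbered by replicate) with the mean and SD (bars, n = 4 per group) for the 6 members whose change was at least its standard error, fear conditioning in orange and context control in blue. The groups are apart for Smyd3 and Kdm5c and overlap for Mll5, Mll1, Setdb1 and Kdm4b.

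Promoter windows of 300 bases were available for 26 of the 38 members, 35 windows in all, from RefSeq on GRCm38.p6 (250 bases before the start of transcription to 50 after it). They held a median of 29 CpG dinucleotides, against 7 over all 32851 windows. Promoters were searched on both strands for the cyclic AMP response element TGACGTCA, bound by CREB, and for TGANTCA, bound by the Fos and Jun proteins, both known from activity-driven transcription. Both motifs read the same on either strand, and the longer one does not contain the shorter. TGACGTCA stood in the window of 1 member, Suv39h2, and in 1.79% of all windows. TGANTCA stood in windows of 3 members, Kdm5c, Kdm4a and Kdm3a (4 windows), and in 7.81% of all windows. Members without a window, Smyd3, Mll5, Kdm4b and Kdm6b among them, were not searched. The windows of Kdm5c (non-overlapping groups), Kdm4a and Suv39h2 are shown as examples of the members with a match, 5′ to 3′ on the strand of the gene, with the match in capitals. They lie at chrX:152232977-152233276 (plus strand), chr4:118179994-118180293 (minus strand) and chr2:3474937-3475236 (minus strand).
Kdm5c: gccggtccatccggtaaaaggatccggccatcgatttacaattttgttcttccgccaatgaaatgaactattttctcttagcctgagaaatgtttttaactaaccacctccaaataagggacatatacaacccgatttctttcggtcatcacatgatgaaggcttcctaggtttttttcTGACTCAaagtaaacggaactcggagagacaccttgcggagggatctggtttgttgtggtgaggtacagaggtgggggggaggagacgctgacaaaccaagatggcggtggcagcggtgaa
Kdm4a: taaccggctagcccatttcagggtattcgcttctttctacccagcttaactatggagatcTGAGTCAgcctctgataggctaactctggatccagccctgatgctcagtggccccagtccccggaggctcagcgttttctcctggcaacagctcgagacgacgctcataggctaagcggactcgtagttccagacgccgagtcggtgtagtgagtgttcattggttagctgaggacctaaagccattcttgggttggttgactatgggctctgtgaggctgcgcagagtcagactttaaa
Suv39h2: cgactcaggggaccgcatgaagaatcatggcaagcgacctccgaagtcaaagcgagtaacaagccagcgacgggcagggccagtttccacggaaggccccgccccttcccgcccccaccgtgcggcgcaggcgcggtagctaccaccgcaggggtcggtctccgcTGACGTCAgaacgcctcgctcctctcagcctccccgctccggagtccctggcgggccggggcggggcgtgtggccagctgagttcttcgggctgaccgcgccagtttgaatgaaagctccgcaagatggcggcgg
A match describes the letters only. None of these 4 genes passed the test, and the conditioned and control values of Kdm4a, Suv39h2 and Kdm3a overlapped.

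The H3K4 methyltransferases, 5 measured, gave 0 calls in either direction, with 4 higher and 1 lower by sign (3 and 2 under quantile normalization) and a median change of 0.05. Mll1, the founding member of the mammalian trithorax-type enzymes, had the smallest p among them (adjusted p = 0.9998 in limma). It read 645, 546, 465 and 516 in fear conditioning replicates 1 to 4 and 549, 677, 217 and 280 in context control replicates 1 to 4. Context control replicates 3 and 4 were low and the other 6 samples lay between 465 and 677, so the groups overlapped, and the log2 change of 0.47 (SE 0.30) was 0.20 without context control replicate 3. Setd7, a monomethyltransferase that also acts on proteins other than histones, had the highest level per kb of this class. Its values were 929, 789, 879 and 1038 after conditioning and 971, 846, 1000.3 and 703 in context controls, which overlapped almost fully. Setd1a, the catalytic subunit of a SET1 complex, read 217, 180, 102 and 65.2 after conditioning and 156, 180, 77.6 and 108 in context controls. The remaining members of the class, Mll2 and Mll3, averaged 222 and 314 after conditioning and 242 and 275 in context controls. Mll2 has been used for both Kmt2b and Kmt2d, and it is taken here as Kmt2d because Wbp7, an older symbol of Kmt2b, has a row of its own.

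The H3K4 demethylases other than Kdm5c lay close to their controls, and 0 of the 5 in this class were called, with 5 higher by sign (3 under quantile normalization). Kdm1a, the amine oxidase LSD1 of the CoREST repressor complex, had the highest level per kb among them, at 108 over all 8 samples. It read 329, 289, 329 and 361 after conditioning and 334, 324, 288 and 351 in context controls, a narrow spread with no offset between groups. Kdm1b, its paralog, averaged 53.8 ± 14.3 after conditioning and 52.8 ± 7.09 in context controls (SD, n = 4 each). Kdm5a averaged 311 ± 80.7 after conditioning and 303 ± 78.3 in context controls (SD, n = 4 each). Kdm5b averaged 423 ± 77.5 after conditioning and 389 ± 38.7 in context controls (SD, n = 4 each).

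Of the 7 H3K9 methyltransferases, 0 were called, 5 were higher and 2 lower by sign, and the median change was 0.17. Setdb1, the enzyme that silences endogenous retroviruses together with Trim28, had the smallest p of the class (adjusted p = 0.9998 in limma). It read 202, 151, 198 and 221 after conditioning, against 167, 161, 164 and 156 in context controls. Fear conditioning replicate 2 lay below all 4 controls and the other conditioned samples lay above them, for a log2 change of 0.24 (SE 0.17). Its paralog Setdb2 stood near the lower end of detection, with 6.90, 19.9, 17.8 and 20.1 after conditioning and 16.6, 18.8, 29.2 and 16.1 in context controls, at as few as 5 reads in a sample.

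Ehmt1 and Ehmt2 encode GLP and G9a, which work as a heterodimer that mono- and dimethylates H3K9. Ehmt2 read 420, 561, 224 and 146 in fear conditioning replicates 1 to 4 and 358, 486, 180.5 and 258 in context control replicates 1 to 4. Ehmt1 read 144, 122, 91.6 and 70.0 after conditioning and 98.8, 107, 95.8 and 59.5 in context controls. Both genes were higher in replicates 1 and 2 than in replicates 3 and 4 of either group, and their groups overlapped. Per kb of transcript the ratio of Ehmt2 to Ehmt1 ranged from 3.08 to 6.80 in conditioned samples and from 2.79 to 6.69 in context controls.

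The SUV39 enzymes trimethylate H3K9 in constitutive heterochromatin. Suv39h1 read 155, 179, 272 and 181 after conditioning and 166, 179, 161 and 211 in context controls, with fear conditioning replicate 3 the highest of all. Suv39h2 read 23.5, 33.2, 10.9 and 28.8 after conditioning and 29.9, 8.06, 23.2 and 19.3 in context controls, at as few as 6 reads in a sample. Their ratio per kb was above 1 in every sample and ranged from 7.50 to 34.5 after conditioning and from 7.71 to 30.8 in context controls. Prdm2, a tumor suppressor with a SET-related domain, averaged 373 ± 35.7 after conditioning and 336 ± 64.3 in context controls (SD, n = 4 each).

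The 5 H3K9 demethylases gave 0 calls, with 4 higher and 1 lower by sign (3 and 2 under quantile normalization). Kdm4b had the smallest p (adjusted p = 0.9998 in limma). It read 153, 178, 92.9 and 49.9 after conditioning and 124, 137, 40.3 and 49.9 in context controls. Replicates 1 and 2 were high in both groups, which left the log2 change at 0.47 with a standard error of 0.46, and at 0.16 without context control replicate 3. Kdm3a, an enzyme also induced by hypoxia, had the highest level per kb of the class and read 218, 220, 219 and 286 after conditioning and 218, 191, 255 and 267 in context controls. Kdm3b, Kdm4a and Kdm4c averaged 235, 204 and 136 after conditioning, against 256, 177 and 126 in context controls.

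Ezh1 and Ezh2 encode the alternative catalytic subunits of Polycomb repressive complex PRC2, which methylates H3K27, Ezh2 being typical of dividing cells and Ezh1 of cells that no longer divide. Ezh1 read 333, 277, 347 and 272 after conditioning and 296, 277, 253 and 280 in context controls. Ezh2 read 15.2, 17.2, 20.5 and 15.4 after conditioning and 20.8, 9.40, 15.1 and 16.1 in context controls. Both groups held the same imbalance, with an Ezh1 to Ezh2 ratio per kb between 10.7 and 14.5 in conditioned samples and between 9.46 and 19.5 in context controls. Neither gene was called.

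The H3K27 demethylases ran opposite to each other across samples. Kdm6a, X-linked and known as UTX, read 81.5, 76.9, 134 and 139 in fear conditioning replicates 1 to 4 and 95.5, 92.7, 166 and 137 in context control replicates 1 to 4. Kdm6b, known as JMJD3 and inducible in many cell types, read 104, 154, 41.0 and 23.0 after conditioning and 81.4, 79.2, 30.3 and 38.6 in context controls. Kdm6a was low and Kdm6b high in replicates 1 and 2 of both groups, and the reverse held in replicates 3 and 4. The GC content of the longest transcript was 42.5% for Kdm6a and 59.6% for Kdm6b. A division by replicate number that moved with GC content was seen over many genes, as given below. A relation between these 2 genes was not tested. The Kdm6a to Kdm6b ratio per kb ranged from 0.561 to 6.77 after conditioning and from 1.31 to 6.17 in context controls.

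The H3K36 methyltransferases, 4 in all, gave 0 calls, with 3 higher and 1 lower by sign and a median change of 0.06. Under quantile normalization 2 were higher and 2 lower, and the median change was 0.0025. Ash1l, which dimethylates H3K36 and counters Polycomb, had the smallest p and the highest level per kb of the class. It read 657, 643, 835 and 1105 after conditioning and 712, 663, 820 and 655 in context controls, where fear conditioning replicates 3 and 4 stood above all controls, replicate 1 among them and replicate 2 below them. Setd2, the main enzyme for the trimethyl mark of this residue, averaged 363 ± 49.9 after conditioning and 347 ± 33.2 in context controls (SD, n = 4 each). Nsd1 averaged 622 ± 107 after conditioning and 592 ± 42.0 in context controls (SD, n = 4 each). Whsc1, now Nsd2, averaged 468 ± 111 after conditioning and 493 ± 63.4 in context controls (SD, n = 4 each).

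Kdm2a, an H3K36 demethylase that binds unmethylated CpG, read 389, 480, 469 and 498 after conditioning and 468, 474, 410 and 415 in context controls. Its paralog Kdm2b averaged 84.9 ± 22.4 after conditioning and 86.7 ± 6.46 in context controls (SD, n = 4 each). Dot1l, the only known H3K79 methyltransferase of mammals, had the lowest mean level per kb of all members, at 3.51. Its level per kb ranged from 0.602 to 7.01 over the 8 samples. It read 38.7, 47.8, 4.10 and 11.5 after conditioning and 31.6, 33.6, 14.1 and 9.66 in context controls. Its values divided by replicate number within both groups, and its 95% interval, from -1.60 to 1.32, was the widest of the members.

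Among the other SET-domain genes, Mll5 (now Kmt2e), a chromatin regulator with little or no methyltransferase activity of its own, came next to Smyd3. It read 468, 474, 480 and 652 after conditioning and 422, 481, 422 and 304 in context controls. Context control replicate 2 lay above 3 of the 4 conditioned samples, so the groups overlapped. The log2 change was 0.35 (SE 0.18, adjusted p = 0.9998 in limma), and 0.22 without context control replicate 4. Setd3, an actin histidine methyltransferase, had the highest level per kb of all members, at 156 over the 8 samples, and read 383, 383, 467 and 435 after conditioning and 439, 415, 432 and 481 in context controls. Smyd2, which methylates p53 and other proteins, averaged 209 ± 38.7 after conditioning and 207 ± 28.4 in context controls (SD, n = 4 each).

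**Figure D3:**
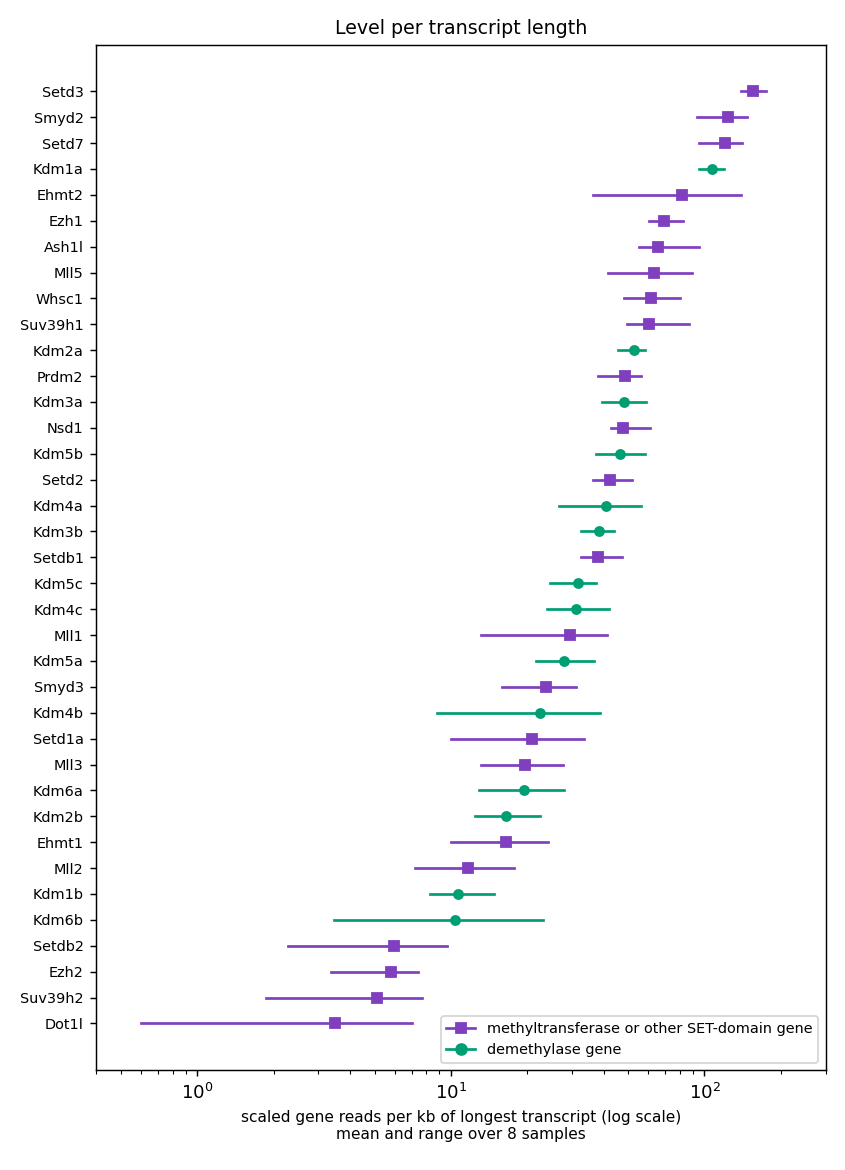
Mean level per kb of the longest transcript over all 8 samples is shown on a log axis, with a line from the lowest to the highest sample, for methyltransferase and other SET-domain genes (purple squares) and demethylase genes (green circles). Setd3, at 156, stands at the top, Dot1l, at 3.51, at the bottom, and Ezh2, Suv39h2 and Setdb2 lie far below Ezh1, Suv39h1 and Setdb1.

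In the order of levels per kb, Setd3, Smyd2, Setd7 and Kdm1a led with means of 156, 124, 121 and 108, and the ranges of neighbours over the 8 samples overlapped. At the low end stood Setdb2 (5.99), Ezh2 (5.82), Suv39h2 (5.11) and Dot1l (3.51), whose ranges also overlapped. Within 3 paralog pairs, Ezh1 over Ezh2, Suv39h1 over Suv39h2 and Setdb1 over Setdb2, the first gene was the higher in every sample. Length was that of the longest annotated transcript, and which transcripts were present in these samples was not measured. The order and the ratios per kb are therefore approximate, and they were not corrected for GC content.

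The values of many members divided by replicate number within both groups. For 11 of 37 members all 4 samples numbered 1 and 2 lay above all 4 numbered 3 and 4, against 14.5% of all tested genes. These were Mll1, Mll2, Setd1a, Ehmt1, Ehmt2, Kdm3b, Kdm4a, Kdm4b, Kdm6b, Dot1l and Smyd2. For 2 members, Kdm5a and Kdm6a, they lay below, against 11.5% of all tested genes. This division was noted after the values had been seen, and nothing in the labels says what the numbers share.

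The GC content of the transcripts moved with this pattern. It ranged from 50.6% to 60.8% in the 11 genes, with a median of 57.0%, from 42.5% to 43.3% in the 2 genes, and from 41.4% to 52.8% in the other 24. Spearman's rho across the 37 members between GC content and a sample's deviation from the gene mean was 0.72, 0.63, -0.41 and -0.77 in fear conditioning replicates 1 to 4, and 0.52, 0.74, -0.83 and -0.45 in context control replicates 1 to 4. Across 11933 tested genes with a mean of at least 10 it was 0.59, 0.66, -0.33 and -0.77 in fear conditioning replicates 1 to 4 and 0.42, 0.56, -0.54 and -0.23 in context control replicates 1 to 4. These are descriptions across genes that share libraries, and genes are not independent. Across the members, rho between GC content and the change after conditioning was 0.05, and between transcript length and that change 0.15. After GC correction 25 members were higher and 12 lower, 0 were called, and the log2 change was 0.57 for Smyd3 and 0.27 for Kdm5c.

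**Figure D4:**
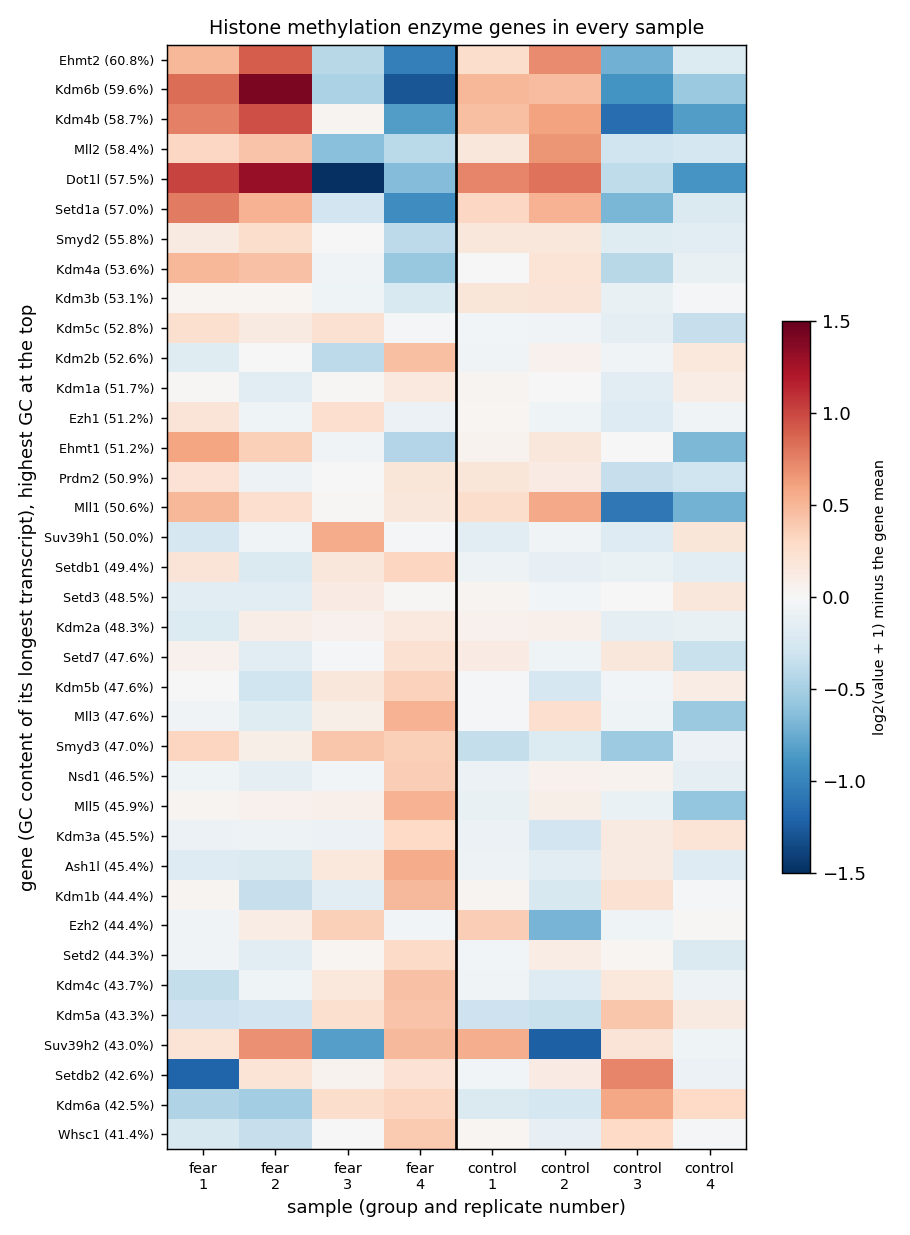
Each cell shows log2(value + 1) of a gene in a sample minus the mean of that gene over 8 samples, for fear conditioning replicates 1 to 4 and then context control replicates 1 to 4, with genes in order of GC content (60.8% for Ehmt2 at the top, 41.4% for Whsc1 at the bottom) and colours that saturate at 1.5 to either side. GC-rich genes are red in replicates 1 and 2 and blue in most of replicates 3 and 4 of both groups.

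Genes for partners of these enzymes, and for further histone methylation enzymes outside the list, also gave 0 calls in either direction, 67 of 70 listed being measured, with 41 higher and 26 lower by sign and a median change of 0.07. In the list of core and partner genes of COMPASS, a complex of H3K4 enzymes, 6 of 11 were higher. The genes of this list with the smallest p were Psip1, a reader of H3K36 methylation, and the scaffold gene Wdr5. Psip1 was at 564 ± 66.8 after conditioning and 512 ± 11.8 in context controls (SD, n = 4 each). Wdr5 was at 119 ± 3.95 after conditioning and 135 ± 20.2 in context controls (SD, n = 4 each). PRC2 subunits were higher in 4 of 9, with Mtf2 at 154 ± 44.9 after conditioning and 121 ± 13.4 in context controls, and Jarid2 at 141 ± 21.8 after conditioning and 121 ± 29.4 in context controls (SD, n = 4 each). Genes listed as partners of Kdm1a and CoREST were higher in 11 of 12 with a median change of 0.19. The smallest p in this list were those of Gse1 at 209 ± 66.0 after conditioning and 152 ± 65.6 in context controls, and Phf21a, a reader of unmethylated H3K4, at 148 ± 26.3 after conditioning and 128 ± 28.2 in context controls (SD, n = 4 each).

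Partners of the H3K9 enzymes were higher in 4 of 9, with the smallest p for Mphosph8, a reader of methylated H3K9, and Atf7ip, a cofactor of Setdb1. Mphosph8 read 308, 260.0, 277 and 414 after conditioning and 302, 226, 326 and 266 in context controls. Atf7ip read 155, 186, 175 and 224 after conditioning and 148, 193, 200 and 145 in context controls. Both overlapped between groups. Other histone methylation enzymes outside the list of 38 were higher in 16 of 26, and in 2 of them, Smyd4 and Setd5, every conditioned sample lay above every control, against 0.979% of all tested genes. Smyd4 read 60.8, 58.4, 47.8 and 48.0 after conditioning and 32.4, 47.0, 40.3 and 33.8 in context controls (adjusted p = 0.9998 in limma). Setd5 read 532, 552, 530 and 583 after conditioning and 512, 454, 487 and 412 in context controls (adjusted p = 0.9998 in limma).

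Every marker of the cell types expected in cortex was detected in every sample. Summed over its genes, the deep-layer neuron list ranged from 1876 to 3199 after conditioning and from 1623 to 2425 in context controls, with 8 of 8 genes higher by sign and 0 called. General neuron markers ranged from 12158 to 14893 after conditioning and from 11120 to 14597 in context controls, with 5 of 6 genes higher (3 under quantile normalization). All 6 astrocyte, 6 oligodendrocyte, 5 oligodendrocyte precursor, 6 microglia and 6 endothelial markers lay lower by sign with 0 called. The astrocyte sum was 13732 to 15838 after conditioning and 13470 to 19184 in context controls, and the oligodendrocyte sum 2544 to 3985 after conditioning and 2213 to 7933 in context controls. The ranges overlapped in both lists. For oligodendrocyte precursors the sum was 558 to 813 after conditioning and 690 to 1036 in context controls, for microglia 978 to 1208 after conditioning and 1163 to 1395 in context controls, and for endothelial cells 572 to 810 after conditioning and 757 to 1031 in context controls. These ranges overlapped too, though narrowly for microglia and endothelial cells. Of the striatal genes, which lie outside the dissected area, 2 of 5 were higher, their sum was 503 to 665 after conditioning and 442 to 779 in context controls, and Drd2 was at 0 in context control replicate 3. The part of these markers in the sign count of 28 of 37 members was not tested.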

How the data were processed

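Total RNA was sequenced from 8 samples, grouped by title, 4 per group, which the series text calls biological replicates. The deposited table is named FPKM, but holds a signal without correction for length. Nonzero values came out as whole reads (100%, tolerance 0.01 read) after division by 1 step per sample, so the deposited signal is gene read counts over a factor per sample, whose method no label gives. Per the submitters' processing notes, the tools were TopHat and HTSeq (versions not given) and the build hg19, which is human. The rows of the deposited table carry mouse gene symbols, Zfp644 and Wbp7 among them. Whether reads were counted by strand is not given, and a gene cannot be told from its antisense partner.

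Values were tested as log2(value + 1) for genes with a mean of at least 1 (limma 3.58.1, R 4.3.3, variance trend, two-sided, Benjamini-Hochberg over all 14704 genes, threshold 0.05). Alternatives were other pseudocounts, filters and scalings, array weights, a replicate block, edgeR 4.0.16 and DESeq2 1.42.0 on the recovered reads, and each sample left out. GC correction was added after the data were seen. The fits were also run on simulated data whose changes were larger than that of any member, so changes as small as those of the members were not covered. Length and GC content came from the longest GENCODE vM21 transcript, with a GC value for 98.8% of tested genes.

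Same-numbered samples of the 2 groups deviated together from their group means (r = 0.40, 0.41, 0.16 and 0.20 for numbers 1 to 4 over 12043 genes), which met the rule of every r over 0.1 for treating the numbers as pairs, and nothing in the labels gives a pairing. Samples of different number correlated as much within 1 and 2 (0.39 and 0.48) and within 3 and 4 (0.64 and 0.22), so these values show a division of 1 and 2 from 3 and 4 rather than separate pairs. All 38 members and the partner and marker lists were chosen with earlier results of these data known. Values in every sample are given for members with an unadjusted p under 0.05 or non-overlapping groups. They are also given for the smallest p and highest level per kb of each class. The same holds for the pairs Ezh1 and Ezh2, Ehmt1 and Ehmt2, Suv39h1 and Suv39h2, Setdb1 and Setdb2, Kdm6a and Kdm6b, and Kdm5c and Kdm5d. Setd1a is given without its paralog Setd1b, which is not analysed here. Partner lists give their 2 smallest p. Mll5, and the genes named for their division by replicate number or their promoter match, were chosen after their values were seen, as were the 6 members plotted by sample. Intervals cover the spread between samples.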

Additional observations from a re-analysis of the deposited data

Results flagged for a closer look

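Within the groups of 4, the sample farthest out was compared with the others for each of the 37 members, 74 groups in all, of which 3 stood out, where chance gives about 1 in 20 groups. Fear conditioning replicate 1 was low for Setdb2, at 6.90 with the nearest conditioned sample at 17.8. Fear conditioning replicate 4 was high for Kdm3a, at 286 with the nearest at 220.2, and for Mll5, at 652 with the nearest at 480.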

How the results depend on the processing

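Under 20 alternatives, 8 of them leaving out 1 sample each, 0 members were called, the members higher by sign numbered 21 to 30 and their median log2 change was 0.03 to 0.12. Calls over all genes stayed at 0 in 19, and ranged from 0 to 1 with a sample left out, Uevld (adjusted p = 0.00643 in limma) without fear conditioning replicate 4. Genes with an unadjusted p under 0.05 numbered 397 in limma, 385 in edgeR, 340 in DESeq2, 594 with the replicate block, 824 with GC correction and 823 with array weights, and the block changed no call. Smyd3 kept its direction throughout, at 0.51 to 0.66. With 1 sample left out Mll1 ranged from 0.20 to 0.74 (0.31 in edgeR and 0.30 with array weights), Kdm4b from 0.16 to 0.82, Mll5 from 0.22 to 0.44, Setdb1 from 0.17 to 0.35 and Kdm5c from 0.23 to 0.35. Under single alternatives up to 11 members took the other sign. Low reads limit Dot1l, Setdb2, Suv39h2 and Ezh2, at 3 to 7 reads in their lowest sample.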
